A study of Mus musculus with 18 samples.

Results

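The angiogenic secreted factors described here are 10 genes listed together under the heading of hypoxia-induced factors, namely Vegfa, Vegfb, Vegfc, Pgf, Adm, Angptl4, Apln, Edn1, Mmp2 and Cxcl12. The heading does not mean that each of them is known to respond to low oxygen. The 10 were chosen by symbol from the 14804 genes that appear in at least 1 of the 3 expression tables of the study. All 10 were in the tables of embryonic stem cells (ESCs, 13578 genes) and trophoblast stem cells (TSCs, 13518 genes). The table of extra-embryonic endoderm (XEN) cells, with 11538 genes, held 6 of them and listed no row for Vegfc, Angptl4, Apln or Cxcl12. The choice by name used no measured value. A rise in hypoxia against normoxia passed the test for few of the 10, and also for few of all genes. The share of all genes was 0% to 0.192% on day 2 and 0.0401% to 0.717% on day 7.

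Wild-type E14 mouse ESCs, TSCs and XEN cells, models of the epiblast, the trophectoderm and the primitive endoderm, were grown under 20% oxygen (normoxia) or under 2% oxygen (hypoxia), the latter for 2 days or 7 days. ESCs were kept on gelatin without feeders. TSCs were grown on a layer of feeder cells with FGF4 and heparin, so a TSC library can hold feeder RNA. XEN cells were kept on gelatin in a medium partly conditioned on mouse embryonic fibroblasts. Each of the 9 groups had 2 biological replicates, giving 18 RNA-seq libraries with 35592641 to 75204029 reads recovered from the deposited values. The levels are TPM, reads per gene scaled by length to a fixed sum per library, as the authors deposited them. The markers of each cell type were present in its own libraries, where 5 markers summed to 6070 to 6858 TPM (ESCs), 647 to 1180 TPM (TSCs) and 1771 to 2300 TPM (XEN cells). In TSCs on day 7, 4 of the 5 TSC markers were lower than on day 2 by the test used here, among them Elf5 (16.8 against 83.8 TPM) and Eomes (123 against 370 TPM). By the same test 13.8% of all genes were lower.

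When oxygen is scarce, HIF transcription factors are stabilized, bind short DNA elements near target genes and raise their transcription, and secreted factors that guide blood vessels are among the best known targets in many tissues. VEGF-A, VEGF-B and placental growth factor bind the receptor FLT1, VEGF-A also signals through KDR, and VEGF-C acts mainly through FLT4 on lymphatic vessels. Adrenomedullin, apelin and the chemokine CXCL12 act through G-protein-coupled receptors on endothelial cells, endothelin-1 constricts vessels, ANGPTL4 inhibits lipoprotein lipase and is induced by fasting and low oxygen, and MMP2 is a gelatinase that cuts the extracellular matrix.

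The core of a HIF element is written ACGTG or GCGTG, and these letters were searched on both strands in windows of 300 bases around the transcription start (250 before it, 50 from it onwards; RefSeq, GRCm38.p6). In CACGTG both strands match, and the matches overlap. At least 1 match was present in 43.8% of all 32851 windows and in 59.4% of the windows of genes in the 3 tables, so a match by itself is common. Of the 10 factors, 8 had 10 windows between them, and 5 of these windows, each of another gene, held a match. Angptl4 and Mmp2 had no window in the table. The windows of Adm, Pgf, Edn1, Vegfb and Apln are printed because these are the factors that passed the test in at least 1 comparison and have a window. Capitals mark each match as it reads on the printed strand, where CACGT and CACGC are the reverse complements of the 2 motifs.
Adm, chr7:110627407-110627706, plus strand: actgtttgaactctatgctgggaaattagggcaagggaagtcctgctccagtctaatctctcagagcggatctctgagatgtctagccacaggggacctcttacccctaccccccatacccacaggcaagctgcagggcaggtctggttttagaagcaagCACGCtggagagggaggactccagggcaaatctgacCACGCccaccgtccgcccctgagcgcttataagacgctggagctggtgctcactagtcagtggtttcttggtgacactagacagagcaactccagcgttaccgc
Pgf, chr12:85177264-85177563, minus strand: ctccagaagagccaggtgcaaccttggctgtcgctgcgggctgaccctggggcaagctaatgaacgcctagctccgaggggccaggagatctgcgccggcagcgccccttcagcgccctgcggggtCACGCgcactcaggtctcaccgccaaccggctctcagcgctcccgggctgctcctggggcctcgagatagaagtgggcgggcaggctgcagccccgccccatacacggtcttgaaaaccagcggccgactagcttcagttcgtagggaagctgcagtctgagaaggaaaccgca
Edn1, chr13:42301226-42301525, plus strand: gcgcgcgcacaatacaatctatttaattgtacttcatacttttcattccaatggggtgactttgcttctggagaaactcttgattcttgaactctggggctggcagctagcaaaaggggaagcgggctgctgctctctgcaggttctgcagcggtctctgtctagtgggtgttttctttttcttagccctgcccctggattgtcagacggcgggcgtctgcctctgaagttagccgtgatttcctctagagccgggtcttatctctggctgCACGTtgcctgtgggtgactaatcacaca
Vegfb, chr19:6987602-6987901, minus strand: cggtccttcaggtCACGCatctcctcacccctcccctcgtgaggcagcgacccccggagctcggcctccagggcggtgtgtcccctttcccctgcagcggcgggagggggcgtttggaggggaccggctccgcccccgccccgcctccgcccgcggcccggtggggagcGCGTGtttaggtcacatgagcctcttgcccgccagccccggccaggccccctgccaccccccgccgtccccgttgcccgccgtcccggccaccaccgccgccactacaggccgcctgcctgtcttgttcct
Apln, chrX:48034804-48035103, minus strand: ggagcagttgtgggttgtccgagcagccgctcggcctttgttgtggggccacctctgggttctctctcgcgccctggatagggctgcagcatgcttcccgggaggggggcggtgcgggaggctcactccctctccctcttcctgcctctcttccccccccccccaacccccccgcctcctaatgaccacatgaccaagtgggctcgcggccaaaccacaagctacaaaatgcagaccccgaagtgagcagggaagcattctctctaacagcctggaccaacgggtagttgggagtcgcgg
Counted from the start as base 1, Adm held GCGTG on the minus strand at -90 to -86 and again at -54 to -50. Pgf held 1 GCGTG at -124 to -120 in the printed window and none in its other window, Edn1 held 1 ACGTG downstream of the start at 22 to 26, and Vegfb held a GCGTG at -237 to -233 and another at -81 to -77. The Apln window held no such letters. The matches are a description of the letters in these windows and were not related to the measured levels by a test.

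In normoxia the factors lay far apart, and the order of levels differed between cell types. For a comparison between genes, TPM was recomputed with the summed length of exons, since the deposited values were scaled by gene span with introns. The span of Vegfc (chromosome 8, 54077606 to 54187096) is 44.7 times its exon length, which moved it from place 7 by deposited TPM to place 4 per exon length among the 10 factors in ESCs. On the exon-length scale Vegfb led in ESCs with 50.6 ± 6.84 TPM (SD, n = 2), followed by Angptl4 at 24.7 ± 2.997, Vegfa at 22.9 ± 1.26 and Vegfc at 21.1 ± 4.96, and the last 3 did not differ beyond their spread. The lowest in ESCs were Pgf, Cxcl12 and Adm, at 0.632 ± 0.0754, 0.560 ± 0.320 and 0.254 ± 0.176 TPM. In TSCs Vegfa led with 177 ± 92.2 TPM, but its lower replicate (112 TPM) was barely above the higher one of the next gene, Adm (66.7 ± 63.1 TPM, higher replicate 111 TPM), and neighbours from Adm down to Vegfb, and again from Edn1 down to Pgf, did not differ beyond their spread. In XEN cells Vegfa (114 ± 34.6), Vegfb (74.5 ± 5.39) and Edn1 (14.4 ± 0.436) stood above Mmp2, Pgf and Adm, which had means between 0.238 and 0.483 TPM.

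**Figure D1:**
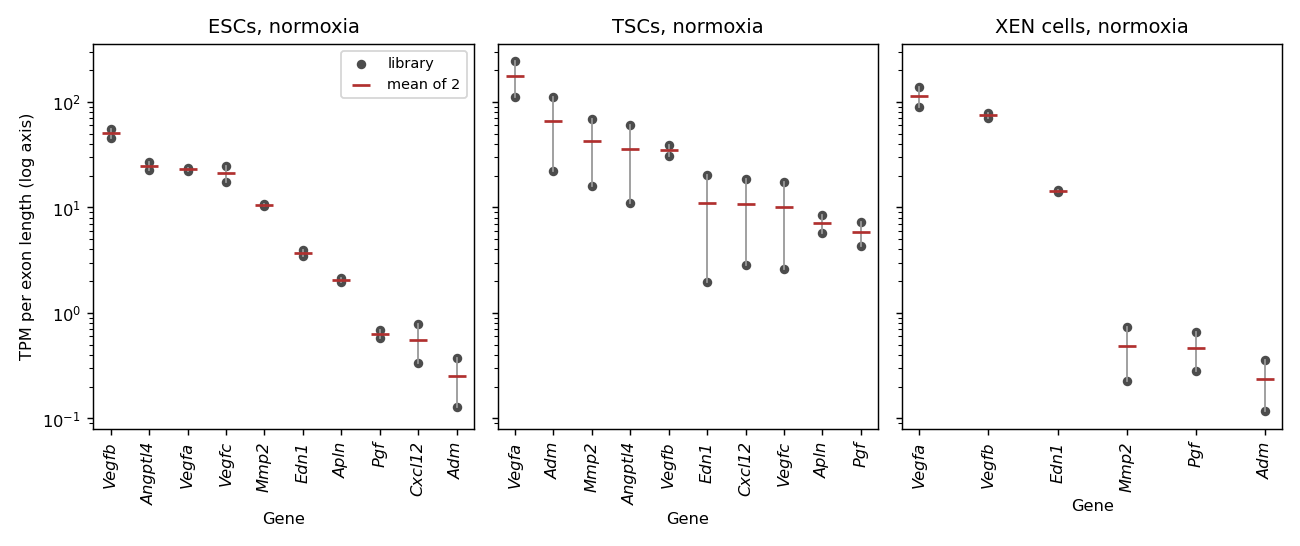
Normoxic level of each factor as TPM per exon length (log axis) in ESCs, TSCs and XEN cells, ordered by the mean, with points for the 2 libraries and a dash for their mean. Most of the TSC factors span a wide range between replicates, whereas Vegfb, Angptl4 and Vegfa in ESCs are close.

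Each comparison was tested with limma on log2(TPM + 0.5) in the 6 libraries of a cell type, with Benjamini-Hochberg adjustment over all genes tested. A gene was counted as DE when its adjusted p did not exceed 0.1 and its fold change exceeded 1.5. Fold changes are on that log2 scale, which understates the change of genes with low TPM, and are given with their standard error (SE). An exact permutation test of 2 against 2 libraries cannot go below p = 0.333, so no such test is given. The members' libraries are plotted for all groups.

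**Figure D2:**
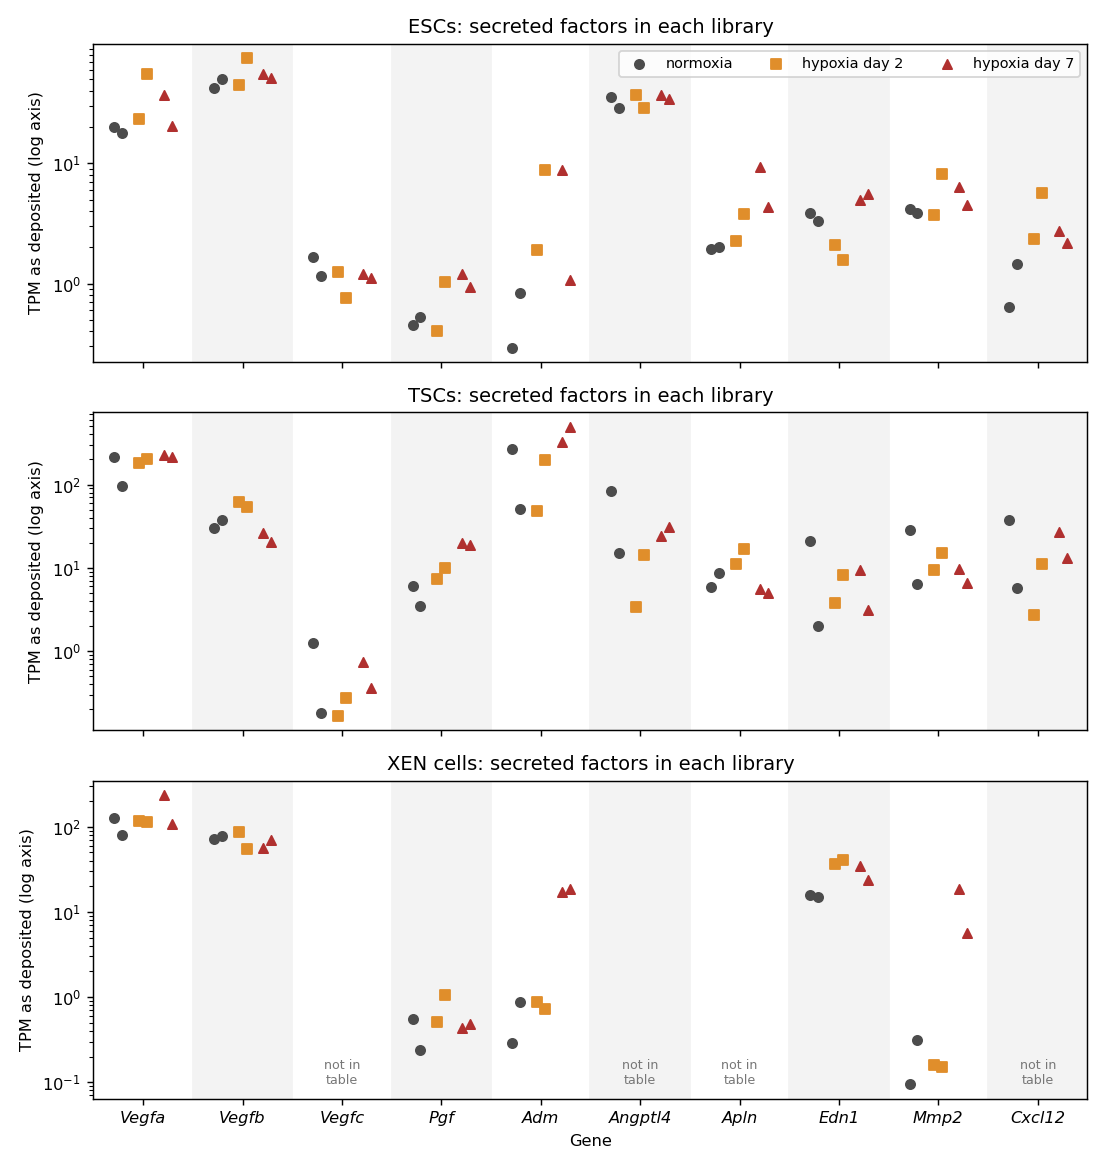
Deposited TPM (log axis) of the 10 factors in every library of ESCs, TSCs and XEN cells, with 2 libraries per group as points for normoxia (circles), day 2 (squares) and day 7 of hypoxia (triangles). Adm and Mmp2 in XEN cells stand apart on day 7, at 17.2 and 18.8 TPM and at 18.5 and 5.70 TPM.

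In XEN cells the largest differences among the factors were in Adm and Mmp2 on day 7. Adm (chromosome 7, 110627661 to 110629820, plus strand), which encodes the vasodilator peptide adrenomedullin, was close to silent in normoxia and on day 2 and rose on day 7. Its level was 0.285 and 0.872 TPM in normoxia, 0.884 and 0.722 TPM on day 2 and 17.2 and 18.8 TPM on day 7. These values rest on 2 and 10 reads, 10 and 8 reads, and 140 and 106 reads. Both day 7 libraries were above all 4 others, and the day 2 libraries lay at the level of the higher normoxic one. The log2 fold change on day 7 was 4.16 (SE 0.30; limma, adjusted p = 0.0119) against normoxia and 3.83 (SE 0.30; adjusted p = 0.0261) against day 2.

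Mmp2 (chromosome 8, 92827291 to 92853420, plus strand), the matrix gelatinase, measured 0.0943 and 0.310 TPM in normoxic XEN cells, 0.161 and 0.149 TPM on day 2 and 18.5 and 5.70 TPM on day 7. The day 7 libraries were again above the other 4, and differed from each other by 3.24 times. Mmp2 rose on day 7 against normoxia by 3.97 on the log2 scale (SE 0.50; limma, adjusted p = 0.0959), and against day 2 the log2 fold change of 4.05 missed the threshold (SE 0.50; adjusted p = 0.144). Mmp2 passed the filter on low values through its day 7 libraries alone, so its presence among the genes tested already required a difference. The call was lost with no filter (adjusted p = 0.128), with the stricter filter (0.103), with a pseudocount of 1 (0.117), with voom (0.167) and in the fit of the 4 libraries compared (0.403), and it was kept under the other planned settings that used all libraries, where the adjusted p lay between 0.0406 and 0.0901. Of 5 smooth muscle markers, 4 were in the XEN table. Their sum was 9.89 and 4.52 TPM in normoxia, 23.6 and 29.7 TPM on day 2 and 51.6 and 28.0 TPM on day 7. Myl9, a myosin light chain of smooth muscle, was DE on day 7 against normoxia (22.9 against 0.254 TPM; limma, adjusted p = 0.04997). It was 1 of 4 smooth muscle markers tested, against 0.11% of all genes DE and higher. Its normoxic libraries, at 0.296 and 0.211 TPM, lay under the filter level of 0.4 TPM. From day 2 to day 7 only 1 of the 4 had a log2 fold change above 0, Myl9, at 35.6 and 10.2 TPM on day 7. The marker Acta2 was 12.4 and 16.4 TPM on day 2 and 9.44 and 11.3 TPM on day 7. The part of smooth muscle RNA in the Mmp2 result was not tested. Only 2 of 10 fibroblast markers were in the XEN table, with a summed level of 0.665 to 1.72 TPM over all 6 libraries, and no trophoblast giant cell marker was.

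Edn1 (chromosome 13, 42301476 to 42307990, plus strand), the precursor of the vasoconstrictor endothelin-1, measured 15.7 and 15.03 TPM in normoxic XEN cells, 36.2 and 40.8 TPM on day 2 and 34.5 and 24.0 TPM on day 7. All 4 hypoxic libraries were above both normoxic ones. The log2 fold changes of 1.30 on day 2 (SE 0.21; limma, adjusted p = 0.293) and 0.88 on day 7 (SE 0.21; adjusted p = 0.312) missed the threshold after adjustment over all genes, with 95% intervals of 0.80 to 1.79 and 0.39 to 1.38. Vegfa (chromosome 17, 46016993 to 46032369, minus strand), the principal vascular growth factor, was 125 and 80.9 TPM in normoxia, 116 and 115 TPM on day 2 and 235 and 108 TPM on day 7, with overlapping groups. Its log2 fold change on day 7 was 0.66 (SE 0.37; limma, adjusted p = 0.652). Both libraries were above both normoxic ones for 1 of the 5 factors other than Mmp2 on day 2, against 19.6% of all genes, and for 2 of 5 on day 7, against 17.5%, while 0 and 1 were below both, against 21.4% and 23.9%. Vegfb ranged from 54.2 to 86.8 TPM and Pgf from 0.236 to 1.05 TPM over the 6 libraries.

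Among the 6 factors in XEN cells, limma called 0 DE on day 2, where 1 had an unadjusted p under 0.05 (7.77% of all genes tested), voom on the recovered reads called 0, and 0% of all genes were DE. Leaving out Mmp2, which the filter favoured, 1 of the other 5 (Adm) was DE and higher on day 7 against normoxia, against 0.11% of all genes, and 1 (Adm) on day 7 against day 2, against 0.0367%. With the day 7 libraries fitted to normoxia in a model of those 4 libraries alone, 0 factors were DE. The calls also depended on single libraries, since 0 factors were DE on day 7 against normoxia without day 2 replicate 1, without day 2 replicate 2 or without day 7 replicate 1, and 1 (Adm) without normoxia replicate 1. Over the 6 fits that each left out a library, the log2 fold change of Adm lay between 3.75 and 4.56 and that of Mmp2 between 3.16 and 4.77.

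In TSCs, Pgf was the only factor that was DE in hypoxia against normoxia. Pgf (chromosome 12, 85166635 to 85177790, minus strand) encodes placental growth factor, a ligand of FLT1 made in large amounts by trophoblast. It measured 6.01 and 3.51 TPM in normoxia, 7.29 and 9.91 TPM on day 2 and 20.1 and 18.9 TPM on day 7. The 3 groups did not overlap, and the day 7 libraries were above all others. The log2 fold change on day 7 was 1.96 against normoxia (SE 0.30; limma, adjusted p = 0.0957) and 1.15 against day 2 (SE 0.30; adjusted p = 0.0659), while on day 2 the value of 0.82 against normoxia missed the threshold (SE 0.30; adjusted p = 0.337). In the fit blocked on replicate number, Pgf had an adjusted p of 0.164 on day 7 against normoxia. The call was also absent in the fits without day 2 replicate 1, day 2 replicate 2, day 7 replicate 1 or day 7 replicate 2, and over the 6 such fits the log2 fold change lay between 1.62 and 2.31.

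Vegfb and Apln moved in the other direction between the hypoxic days. Vegfb (chromosome 19, 6982473 to 6987651, minus strand), a VEGF family ligand of FLT1, was 30.4 and 37.6 TPM in normoxic TSCs, 61.8 and 53.7 TPM on day 2 and 26.5 and 20.7 TPM on day 7. Apln (chromosome X, 48025146 to 48034853, minus strand), the precursor of apelin, was 5.97 and 8.64 TPM in normoxia, 11.1 and 16.9 TPM on day 2 and 5.51 and 5.06 TPM on day 7. For both genes the day 2 libraries were the highest and the day 7 libraries the lowest, without overlap between any of the 3 groups. From day 2 to day 7 Vegfb fell by 1.28 on the log2 scale (SE 0.22; limma, adjusted p = 0.0275) and Apln fell by 1.29 (SE 0.30; adjusted p = 0.0481). Their higher day 2 levels against normoxia, log2 fold changes of 0.76 (SE 0.22; adjusted p = 0.254) and 0.88 (SE 0.30; adjusted p = 0.309), missed the threshold. The median log2 fold change of all genes tested from day 2 to day 7 was -0.24, and after scaling each library by its median ratio, which brought that median to 0.01, the values were -1.01 for Vegfb, -1.03 for Apln and 1.42 for Pgf, each still DE.

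Adm was abundant in TSCs, and its replicates lay far apart in normoxia and on day 2. It was 265 and 51.4 TPM in normoxia, 47.9 and 196 TPM on day 2 and 321 and 493 TPM on day 7. The day 7 libraries were above the other 4, but the log2 fold changes of 1.76 against normoxia (SE 0.86; limma, adjusted p = 0.543) and 2.03 against day 2 (SE 0.86; adjusted p = 0.179) missed the threshold. Vegfa was 215 and 96.8 TPM in normoxia, 181 and 202 TPM on day 2 and 227 and 215 TPM on day 7. Its groups overlapped between normoxia and day 2, and only normoxic replicate 2 stood low. Its log2 fold change on day 7 was 0.61 against normoxia (SE 0.35; limma, adjusted p = 0.597).

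The other 5 factors in TSCs differed widely between replicates, and no comparison of them passed the test. Angptl4 (chromosome 17, 33773750 to 33781830, minus strand), a secreted regulator of lipid uptake and vessels, was 83.7 and 15.1 TPM in normoxia, 3.35 and 14.2 TPM on day 2 and 24.4 and 31.3 TPM on day 7. Cxcl12 (chromosome 6, 117168535 to 117181367, plus strand), a chemokine made by stromal cells, was 37.6 and 5.69 TPM, 2.74 and 11.01 TPM and 27.3 and 13.1 TPM in the same order. Mmp2 was 28.1 and 6.37, 9.49 and 15.3, and 9.77 and 6.65 TPM. In normoxia replicate 1 was above replicate 2 in all 5, and on day 2 replicate 2 was above replicate 1 in all 5. Edn1 spanned 2.01 to 21.1 TPM and Vegfc 0.167 to 1.24 TPM, each with the highest value in normoxic replicate 1, where Edn1 was 10.5 times and Vegfc 6.84 times the level of replicate 2.

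The markers of fibroblasts, the kind of cell commonly used as feeders, were uneven between the same libraries. All 10 were in the TSC table, and their summed level was 1923 and 290 TPM in normoxia, 218 and 1010 TPM on day 2 and 476 and 286 TPM on day 7. All 5 smooth muscle markers were present too, at a summed 1979 and 189 TPM in normoxia, 379 and 1200 TPM on day 2 and 410 and 178 TPM on day 7. The part of fibroblast or muscle RNA in the levels of Mmp2, Edn1, Cxcl12, Angptl4, Vegfc and Adm was not tested, and in bulk RNA fewer cells of a type and less RNA per cell cannot be told apart. Its part in Pgf, Vegfb and Apln, which passed the test, was not tested either. Of 6 trophoblast giant cell markers, 4 were in the table, and Hand1, a transcription factor of giant cells, made up nearly all of their sum, at 8648 and 14200 TPM in normoxia, 8568 and 7234 TPM on day 2 and 14760 and 12870 TPM on day 7. The other 3 were low, with Prl2c2 at 0.108 to 1.46 TPM, Prl2a1 at 0.998 to 10.45 TPM and Prl3d1, a prolactin family hormone, at 0.388 to 6.53 TPM. Prl3d1 was DE higher on day 7 than on day 2 (4.88 against 0.663 TPM; limma, adjusted p = 0.0351). It was 1 of 4 giant cell markers tested, against 2.37% of all genes DE and higher. The part of giant cells in the Pgf result was not tested. The 5 of 8 endothelial markers in the table summed to 33.2 and 28.8 TPM in normoxia, 27.0 and 72.3 TPM on day 2 and 108 and 101 TPM on day 7. From day 2 to day 7 Pecam1, an endothelial adhesion molecule, was DE higher (16.5 against 8.37 TPM; limma, adjusted p = 0.0989), whereas Kdr was DE lower (2.98 against 8.35 TPM; adjusted p = 0.0466). These were 1 higher and 1 lower of 4 endothelial markers tested, against 2.37% and 13.8% of all genes.

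**Figure D3:**
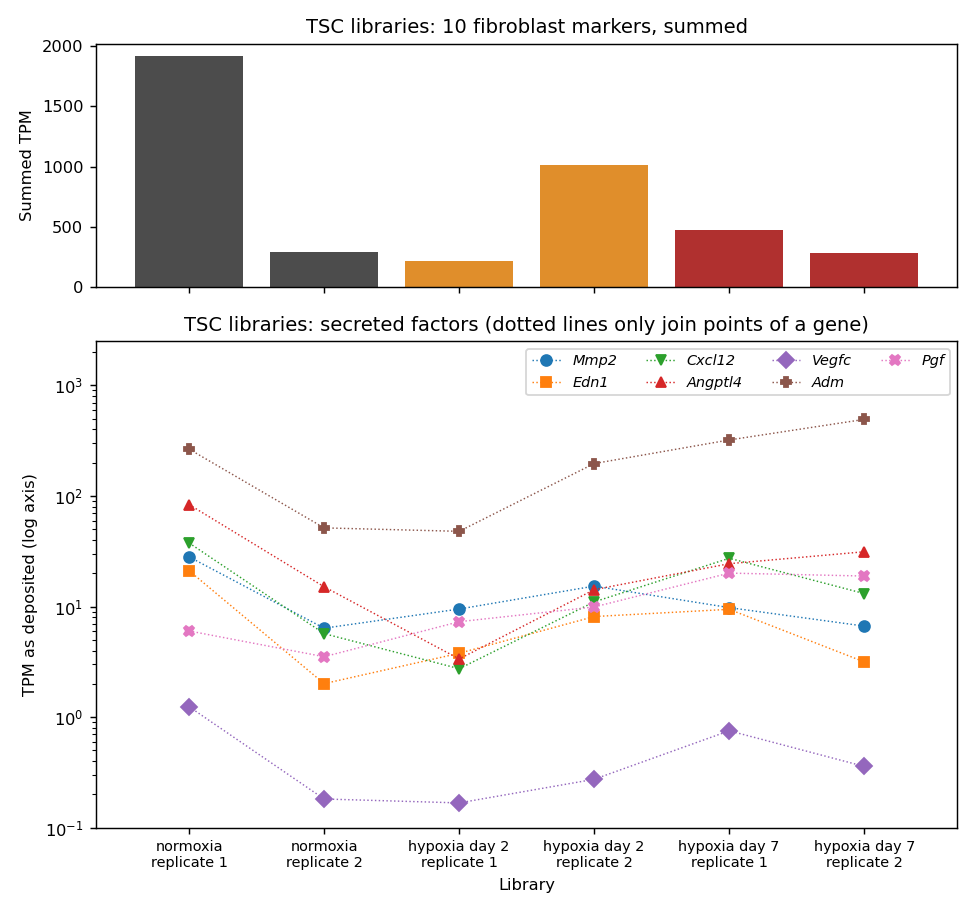
Summed TPM of 10 fibroblast markers (bars, from 0) in each of the 6 TSC libraries. Points (log axis) give the deposited TPM of Mmp2, Edn1, Cxcl12, Angptl4, Vegfc, Adm and Pgf in the same libraries. These factors were picked among those higher in the same replicate of normoxia and of day 2 as the markers. That likeness therefore follows from the choice. Normoxic replicate 1 and day 2 replicate 2 have the highest fibroblast sums, at 1923 and 1010 TPM, whereas, of the factors not shown, Vegfb and Apln were higher in the other normoxic replicate and Vegfa was higher in the same replicates as the markers.

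Counted over the 10 factors in TSCs, limma called 0 DE on day 2 against normoxia, where 0.2% of all genes were DE. At an unadjusted p under 0.05 there were 4 of 10, against 13.1% of all genes, and voom called 0. Both libraries were above both normoxic ones for 3 of 10 on day 2, against 30.6% of all genes, and for 3 of 10 on day 7, against 8.98%. They were below both for 1 of 10, against 16.9%, and for 2 of 10, against 32.3%. On day 7 against normoxia 1 of 10 was DE and higher, against 0.0401% of all genes, and the median log2 fold change of the factors was -0.18, the same as that of all genes tested (-0.18). On day 7 against day 2 1 was higher, against 2.37% of all genes, and 2 were lower, against 13.8%, so the lower calls were near the background. In a fit of only these 4 libraries 6 factors were DE, with Adm, Angptl4 and Cxcl12 also higher. The share of all genes DE in that fit is not given here, so the 6 have no background. The count was 0 without day 2 replicate 1 or without day 7 replicate 2, and 1 (Vegfb) without day 7 replicate 1. Without normoxic replicate 1 the log2 fold change of Vegfc on day 2 turned from -0.60 to 0.08 and that of Mmp2 on day 7 from -0.71 to 0.32, and neither was DE either way.

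**Figure D4:**
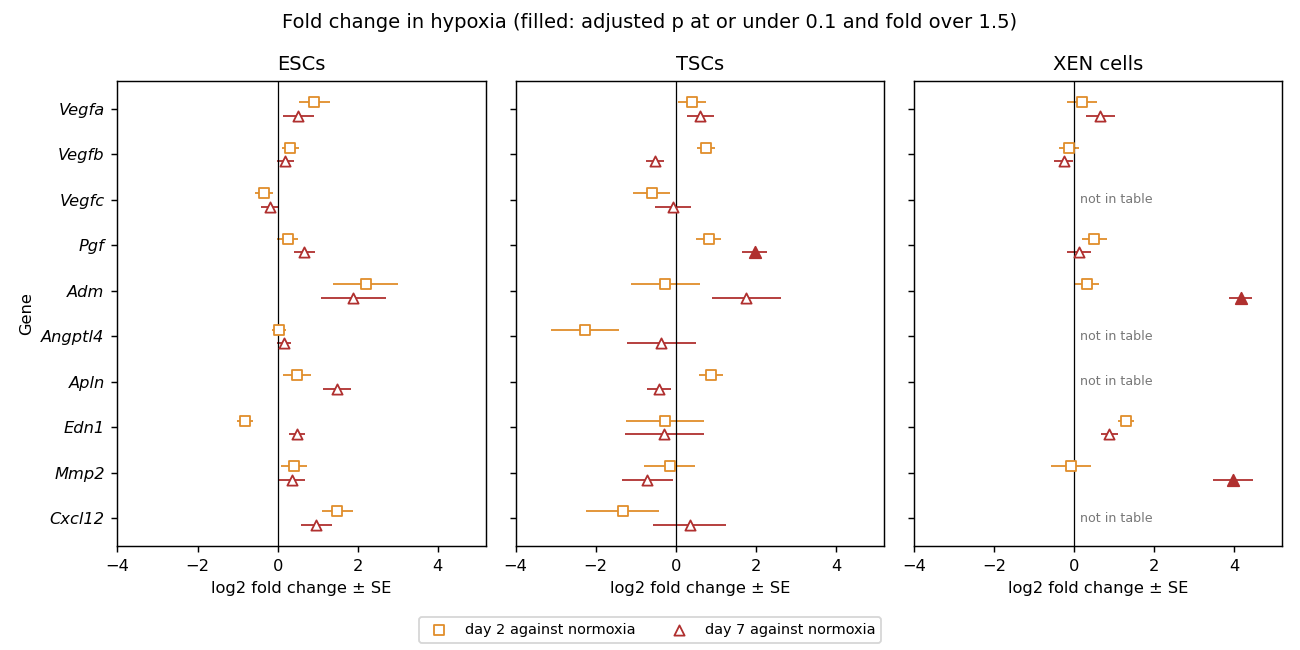
Log2 fold change with SE of each factor on day 2 (squares) and day 7 (triangles) of hypoxia against normoxia in ESCs, TSCs and XEN cells, with filled symbols for DE genes. The 3 filled points are Pgf in TSCs (1.96), Adm in XEN cells (4.16) and Mmp2 in XEN cells (3.97), all on day 7.

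In ESCs no factor was DE against normoxia on either day, and Edn1 was the only factor DE between the hypoxic days. Edn1 measured 3.89 and 3.31 TPM in normoxia, 2.10 and 1.57 TPM on day 2 and 4.93 and 5.52 TPM on day 7. The day 2 libraries were the lowest and the day 7 libraries the highest, without overlap. Edn1 rose from day 2 to day 7 by 1.30 on the log2 scale (SE 0.20; limma, adjusted p = 0.0860), and its lower day 2 level against normoxia, a log2 fold change of -0.82, missed the threshold (SE 0.20; adjusted p = 0.602). The call from day 2 to day 7 was lost under most of the alternatives, among them the replicate block (adjusted p = 0.300) and each fit without a normoxic or a day 7 library. Exons of Edn1 share 35 bases with the antisense gene Gm47118 in the annotation, and whether reads were assigned by strand is not given in the sources used here. Single markers of other cell types also differed on day 7 in ESCs. Acta2, a smooth muscle actin, was DE on day 7 against day 2 (19.5 against 4.92 TPM; limma, adjusted p = 0.0860) and against normoxia (5.84 TPM), and Col1a1, a fibroblast collagen (10.6 against 1.56 TPM), and Hand1 (10.5 against 2.12 TPM) were DE against normoxia. Against normoxia these were 1 of 4 smooth muscle markers tested, 1 of 4 fibroblast markers tested and the only 1 of 6 giant cell markers in the table. The share of all genes DE and higher was 0.717%. The fibroblast marker Twist1 was 11.3 and 21.1 TPM in normoxia and 10.5 and 11.6 TPM on day 7. The 5 smooth muscle markers summed to 69.4 and 48.8 TPM in normoxia, 46.6 and 27.8 TPM on day 2 and 73.6 and 98.7 TPM on day 7. The 6 of 10 fibroblast markers in the table summed to 38.1 to 51.1 TPM over all 6 libraries. Their part in the levels of Edn1 was not tested.

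Apln and Cxcl12, a pair of ligands of G-protein-coupled receptors, were higher in each hypoxic ESC library than in the normoxic ones. Apln was 1.93 and 2.03 TPM in normoxia, 2.27 and 3.82 TPM on day 2 and 9.39 and 4.30 TPM on day 7. Both day 7 libraries were above the other 4, at a log2 fold change of 0.99 against day 2 that missed the threshold (SE 0.34; limma, adjusted p = 0.910). The log2 fold change on day 7 was 1.48 against normoxia (SE 0.34; limma, adjusted p = 0.175), and it was DE in the fit of the 4 libraries compared and in the fits without day 2 replicate 1, day 2 replicate 2 or day 7 replicate 2. Cxcl12 was 0.642 and 1.47 TPM in normoxia, 2.36 and 5.71 TPM on day 2 and 2.72 and 2.17 TPM on day 7. All 4 hypoxic libraries were above both normoxic ones, at log2 fold changes of 1.49 (SE 0.38; limma, adjusted p = 0.621) and 0.97 (SE 0.38; adjusted p = 0.554), and neither passed.

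Adm in ESCs was 0.293 and 0.831 TPM in normoxia, 1.89 and 8.78 TPM on day 2 and 8.76 and 1.07 TPM on day 7, on 2 and 8, 20 and 98, and 90 and 8 reads. The hypoxic libraries were all above the normoxic ones but differed 4.64-fold and 8.15-fold within their groups. The log2 fold changes were 2.20 on day 2 (SE 0.82; limma, adjusted p = 0.939) and 1.89 on day 7 (SE 0.82; adjusted p = 0.609), with 95% intervals of 0.33 to 4.06 and 0.03 to 3.76. Vegfa was 20.05 and 18.02 TPM in normoxia, 23.6 and 55.8 TPM on day 2 and 36.8 and 20.3 TPM on day 7. Each hypoxic library exceeded both normoxic ones, the lower day 7 library by little. The log2 fold change on day 2 was 0.92 (SE 0.38; limma, adjusted p = 0.970), with a 95% interval of 0.04 to 1.79.

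Angptl4 lay between 29.1 and 37.4 TPM in all 6 libraries in ESCs, with overlapping groups. Vegfb lay between 42.8 and 74.7 TPM, Mmp2 between 3.70 and 8.10 TPM and Vegfc between 0.758 and 1.66 TPM. The day 2 replicates of Mmp2 differed 2.19-fold. Pgf was 0.454 and 0.523 TPM in normoxia, 0.403 and 1.02 TPM on day 2 and 1.21 and 0.936 TPM on day 7. Its day 2 libraries lay on both sides of the normoxic ones, and its day 7 libraries were above both, with a log2 fold change of 0.66 (SE 0.26; limma, adjusted p = 0.554).

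Counted over the 10 factors in ESCs, limma called 0 DE on day 2 against normoxia, where 0% of all genes were DE, 4 of 10 had an unadjusted p under 0.05 (5.05% of all genes) and voom called 0. On day 7 against normoxia it again called 0, with 0.758% of all genes DE, 5 of 10 at an unadjusted p under 0.05 (8.04% of all genes) and 0 by voom. Both libraries were above both normoxic ones for 4 of 10 factors on day 2, against 16.4% of all genes, and for 8 of 10 on day 7, against 23% of all genes. They were below both for 1 of 10 on day 2 (Edn1), against 14.4%, and for 0 on day 7, against 17.5%. From day 2 to day 7 1 of 10 was DE and higher, against 0.179% of all genes. The 2 day 2 replicates of ESCs differed over 1.5-fold in 13.4% of genes, against 3.88% in normoxia. Over the 6 fits that each left out 1 library, the day 2 log2 fold changes against normoxia varied. They lay between 1.22 and 3.17 for Adm, 0.93 and 2.05 for Cxcl12 and 0.31 and 1.53 for Vegfa. For Mmp2 they lay between -0.115 and 0.92, for Vegfb between -0.04 and 0.68 and for Edn1 between -0.98 and -0.65. Without either day 2 replicate, such a value rests on the other library alone. Day 2 and day 7 share their normoxic libraries in every cell type, so their fold changes are not independent of each other.

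Set beside each other, no factor was DE against normoxia in more than 1 cell type. The share of all genes DE in more than 1 cell type is not given here, and at most 0.717% were DE and higher in any such comparison. Both day 7 libraries of Adm were above both normoxic ones in each cell type. The log2 fold changes were 1.89 (ESCs), 1.76 (TSCs) and 4.16 (XEN cells), and only the last was DE. Adm on day 7 was 8.76 and 1.07 TPM in ESCs, 321 and 493 TPM in TSCs and 17.2 and 18.8 TPM in XEN cells, and Pgf was 1.21 and 0.936, 20.1 and 18.9, and 0.428 and 0.481 TPM. The tables were normalized separately, so levels and fold changes were not tested between cell types.

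Other genes of the pathway were described by lists written from general knowledge. Of 27 receptors and processing enzymes for these ligands, 15 (ESCs), 19 (TSCs) and 13 (XEN cells) were tested, and the DE genes were 4 of 19 lower on day 7 than on day 2 in TSCs, against 13.8% of all genes. These were Pcsk6, a proprotein convertase (1.05 against 6.13 TPM; log2 fold change -2.10; limma, adjusted p = 0.0161), Ramp2, the partner of the adrenomedullin receptor (0.817 against 4.10 TPM), Nrp2, a co-receptor of VEGF-C (4.89 against 14.6 TPM), and Kdr, the main VEGF-A receptor (2.98 against 8.35 TPM). In the other 8 comparisons limma called 0 of 122 gene tests DE, with 24 at an unadjusted p under 0.05 and 2 called by voom. The share of all genes under 0.05 ran from 523 of 12271 (ESCs, day 7 against day 2) to 1639 of 12481 (TSCs, day 2 against normoxia). The same genes recur in each comparison of a cell type, so these gene tests are not independent.

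Of 45 further secreted angiogenic factors, 16 to 25 were tested per cell type, and 5 of 25 were DE on day 7 against day 2 in TSCs, 2 higher, against 2.37% of all genes, and 3 lower, against 13.8%, a share near the background. Grem1, a BMP antagonist that also binds KDR, was higher (26.2 against 8.59 TPM; limma, adjusted p = 0.0676), as was Pdgfa, a platelet-derived growth factor chain (185 against 98.3 TPM; adjusted p = 0.0736). Stc2, a stanniocalcin (3.96 against 18.2 TPM), Nampt, an enzyme of NAD synthesis that is also secreted (19.1 against 46.3 TPM), and Angptl6, an angiopoietin-like protein (1.64 against 3.67 TPM), were lower. In the other 8 comparisons limma called 0 of 167 gene tests, with 26 at an unadjusted p under 0.05 and 1 by voom. The range for all genes was that given with the receptors. Of 25 secreted inhibitors of angiogenesis, 18 (ESCs), 20 (TSCs) and 9 (XEN cells) were tested, and 2 were DE in any comparison. Igfbp3 was higher in ESCs on day 7 against normoxia (88.2 against 39.4 TPM; limma, adjusted p = 0.0813). It was 1 of 18, against 0.717% of all genes DE and higher. The semaphorin Sema3b was lower in TSCs on day 7 against day 2 (2.98 against 18.7 TPM; limma, adjusted p = 0.0327). It was 1 of 20, against 13.8% of all genes DE and lower, so this call did not exceed the background. In the other 7 comparisons limma called 0 of 103 gene tests, with 16 at an unadjusted p under 0.05 and 0 by voom. The range for all genes was again the same.

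A list of 30 hypoxia targets of other kinds (metabolism, mitophagy, oxygen sensing) was described the same way. On day 2 in TSCs, 6 of 28 tested were DE and higher, against 0.192% of all genes, where 0 of the 10 secreted factors were. The 3 with the largest fold changes were Car12, a carbonic anhydrase (7.89 against 0.818 TPM), Pdk1, a kinase that holds pyruvate out of mitochondria (85.8 against 15.02 TPM), and Bnip3, a mitophagy receptor (89.9 against 15.9 TPM). The median log2 fold change of the 28 was 1.04, that of the secreted factors -0.21 and that of all genes tested 0.07. From day 2 to day 7 in TSCs, 15 of 28 were DE and lower, against 13.8% of all genes, led by Pdk1, Car12 and Bnip3, and 1, Bhlhe40, a transcriptional repressor, was higher (831 against 465 TPM). Over the same days Vegfb and Apln were DE and lower, and Pgf was DE and higher. The median log2 fold change of the secreted factors was 0.37, that of the 28 targets -0.95 and that of all genes tested -0.24.

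In ESCs, Ndufa4l2, a respiratory chain associated protein, was DE on day 7 against normoxia (102 against 7.37 TPM; limma, adjusted p = 0.0813). It was 1 of 28 tested, against 0.717% of all genes DE and higher. In XEN cells Egln3, an oxygen-sensing prolyl hydroxylase, was DE on day 7 against normoxia (95.4 against 13.1 TPM; limma, adjusted p = 0.0119). It was 1 of 26 tested, against 0.11% of all genes. Egln3 was also DE on day 7 against day 2 (22.1 TPM on day 2; limma, adjusted p = 0.0870), where 0.0367% of all genes were DE and higher. The list's median log2 fold change in ESCs was 0.73 on day 2 and 0.75 on day 7, where the secreted factors had 0.36 and 0.50 and all genes 0.01 and 0.02. In XEN cells it was 0.41 and 0.43, where the 5 secreted factors other than Mmp2 had 0.33 and 0.66 and all genes -0.01 and -0.03. In the 4 comparisons in which limma called 0 of its 110 gene tests, 33 had an unadjusted p under 0.05 and voom called 0. The share of all genes under 0.05 ran from 523 of 12271 (ESCs, day 7 against day 2) to 1298 of 12481 (TSCs, day 7 against normoxia). Differences between lists were not tested.

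**Figure D5:**
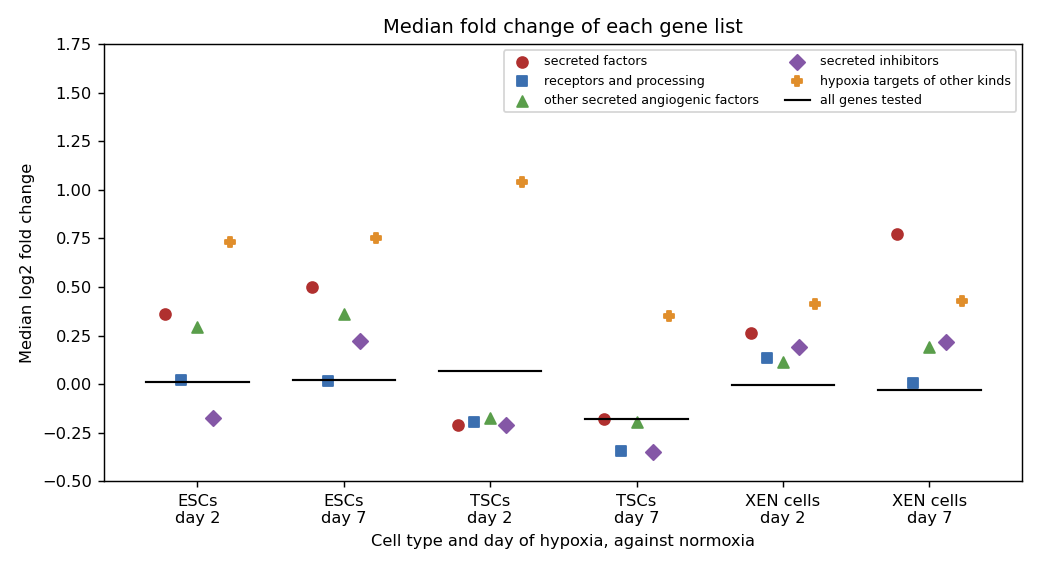
Median log2 fold change of the secreted factors, 4 other gene lists and all genes tested (bars) on day 2 and day 7 against normoxia in each cell type. The list of hypoxia targets of other kinds lies above the median of all genes in all 6 columns, at 0.35 to 1.04, whereas the secreted factors lie at -0.21 and -0.18 in TSCs and above 0 in the other cells, where the XEN points include Mmp2.

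For the 6 factors tested in all 3 cell types, the genes with the most similar pattern were found over the 18 libraries after the mean of each cell type was subtracted, among 10081 genes. These correlations are a description over libraries that share groups and normoxic samples. Mmp2 was nearest to Col6a2, a collagen VI chain (Pearson r = 0.98), Fkbp10 (0.93) and P3h3 (0.93), both of which act in collagen folding or modification. In XEN cells Mmp2 passed the filter through its day 7 libraries alone, at 18.5 and 5.70 TPM against 0.0943 to 0.310 TPM in the others. How far its correlations rest on those libraries was not tested. Edn1 was nearest to Vcl, which encodes vinculin (0.90), Pls3 (0.86) and Dpysl3 (0.86), and Vegfb to Odf2l (0.93), Lpcat4 (0.91) and Cdkn1b (0.91), the last a cell cycle inhibitor. Adm was nearest to Jdp2, a repressor of AP-1 (0.86), Camk1 (0.83) and Gusb (0.81), and Vegfa to Ctsc (0.81), Gusb (0.81) and Cebpg (0.81). Pgf was nearest to Crip1 (0.82), Plac8 (0.77) and Fdxr (0.74).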

How the data were processed

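RNA-seq libraries of 9 groups with 2 biological replicates each were analysed. The authors trimmed, aligned (mm10) and counted the reads on genes, filtered for protein-coding genes with reads above a minimum in at least 2 of 6 libraries of a cell type, and deposited TPM in a separate table per cell type. The submitters' notes name cutadapt 2.4, STAR 2.7.5a, StringTie 2.0.6, featureCounts and edgeR 3.26.8. Columns labelled as day 0 were taken as normoxia, and every column was mapped to a library. TPM multiplied by gene span (end minus start, GENCODE release M21, GRCm38) fell within 0.05 of whole multiples of a step for 98.7% to 98.9% of values per library. The deposited TPM were therefore scaled by gene span with introns, and long genes have low values. The recovered reads served as depth and for alternatives. Of recovered values from 1 to 49 reads, 66.3% (ESCs), 69.3% (TSCs) and 65.8% (XEN cells) were even, so single reads are not independent fragments.

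A gene was tested where at least 2 of 6 libraries exceeded 0.4 TPM (12271 genes of ESCs, 12481 of TSCs, 10894 of XEN cells) with limma 3.58.1 in R 4.3.3, with a mean-variance trend and a pseudocount of 0.5. The authors' thresholds were kept, but their edgeR test was not run here. The main test was of the deposited unit, and voom was the test of the recovered reads. On simulated libraries of the 3 cell types, 200 genes were changed 4-fold at dispersions of 0.01 and 0.05. The fit found 95.5% to 99.5% of them, with 7 to 25 false calls, and made at most 3 calls where no gene was changed. Replicates of some factors lay further apart than these dispersions give, such as Adm on day 7 in ESCs (8.15-fold). The share found does not apply to such genes, and a missed threshold does not show that a gene was unchanged. Adm on day 2 in ESCs, at a log2 fold change of 2.20, was not DE (limma, adjusted p = 0.939). Promoter windows and tables were read with Python 3.11.15 (pandas 2.3.3), and matplotlib 3.10.9 drew the figures.

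The labels number the replicates without saying that a number marks a shared culture or day. The correlation of same-numbered replicates' deviations lay between -0.46 and 0.27 over the 9 comparisons, so the number was used only in an alternative. Alternatives were other pseudocounts and filters, median-ratio scaling, no trend, the replicate block, a crossed block added after seeing the data, a fit of only the 4 libraries compared, fits that each left out 1 library, voom on recovered reads and TPM with exon length. All 10 factors are reported. Of each other list except the cell type markers, the DE genes are named, up to 3 per direction and comparison in the order of fold change. Kdr is named beyond these 3. For each factor tested in all 3 cell types, the 3 genes with the highest correlation are named. Eomes, Elf5, Myl9, Acta2, Col1a1, Pecam1, Hand1 and the prolactin genes come from the marker lists and were named after their values were seen. The factors, the lists and the tests were chosen with earlier results of these data known. The authors' DE lists were not used here.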

Additional observations from a re-analysis of the deposited data

Results flagged for a closer look

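In 3 factors, both libraries of a single day of hypoxia lay on one side of both normoxic libraries in one cell type and on the opposite side in another. On day 7 Vegfb was higher in ESCs (log2 fold change 0.19) and lower in TSCs (-0.52) and XEN cells (-0.26). Apln on day 7 was higher in ESCs (1.48) and lower in TSCs (-0.41). Edn1 on day 2 was higher in XEN cells (1.30) and lower in ESCs (-0.82). The difference was not tested in any of them, since the tables were normalized separately, and none of these fold changes was DE. Each kept its direction with median-ratio scaling, with voom on the recovered reads and with exon-length TPM, with Vegfb in TSCs at -0.33 and Apln in TSCs at -0.24 after median-ratio scaling.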

How the results depend on the processing

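The number of DE factors was 0 under every alternative on day 2 in TSCs and XEN cells. In ESCs it was 0 on day 2 and 0 to 6 with 1 library left out, and on day 7 against normoxia it was 1 in the fit of 4 libraries and 0 to 1 with 1 library left out. From day 2 to day 7 in ESCs the single call was lost (0) with the stricter filter, exon-length TPM, the fit of 4 libraries, median-ratio scaling, no filter, pseudocount 0.1 and voom, and the count was 0 to 1 with 1 library left out. In TSCs on day 7 against normoxia the count was 0 in the fit of 4 libraries, without the filter, without the trend and with voom, and 0 to 1 with 1 library left out. On day 7 against day 2 in TSCs it was 6 in the fit of 4 libraries and 0 to 6 with 1 library left out. In XEN cells on day 7 against normoxia it was 1 with the stricter filter, without the filter, with pseudocount 1 and with voom, 0 in the fit of 4 libraries, and 0 to 2 with 1 library left out. On day 7 against day 2 in XEN cells it was 2 with exon-length TPM and in the fit of 4 libraries, 0 with voom, and 0 to 2 with 1 library left out. The cause was not tested. The share of all genes DE under each alternative is not given here, so these counts have no background.

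With the replicate block the count fell to 0 from day 2 to day 7 in ESCs and on day 7 against normoxia in TSCs, and the other 7 counts did not change. With the block, the adjusted p was 0.164 for Pgf in TSCs and 0.300 for Edn1 in ESCs (limma). Whether the numbers pair the samples is not known from the labels. With crossed numbers the counts were 1 from day 2 to day 7 in ESCs, 0 on day 2 in TSCs and 0 from day 2 to day 7 in XEN cells. Of 33 fold changes past 1.5, 2 reversed in any alternative, both without normoxic replicate 1 of TSCs (Vegfc on day 2, 0.076, and Mmp2 on day 7, 0.32). With 1 library left out, Vegfc lay between -1.28 and 0.076 and Mmp2 between -1.74 and 0.32. Low levels of Adm in ESCs and XEN cells rest on few reads, and 2 libraries per group limit every test.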
